A study of Mus musculus with 8 samples.

Results

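The genes described are 49 cell cycle genes, 24 that act at the entry into and passage through DNA synthesis (the G1/S set) and 25 that act at the onset and passage of mitosis (the G2/M set), among 39179 genes with a row in the count files. They were chosen as 50 listed names matched to the gene column, 1 of them an older name of Cdk1, and all 49 were abundant enough to be tested. Levels were taken by RNA sequencing of total RNA from cells of mouse pancreatic ductal adenocarcinoma, the common cancer of the exocrine pancreas, in 4 cell lines of the iKPC model. Every library carried an oncogenic transgene under a doxycycline-responsive promoter, together with ROSA_rtTA, the doxycycline-dependent activator, and p48-Cre, a recombinase expressed in the pancreatic lineage. Lines 1 and 2 had the background FVB/C57Bl6 and lines 3 and 4 the background C57BL/6. Each line was sequenced once while overexpressing WT-USP21, a deubiquitinase that removes ubiquitin from proteins, and once with a second form labelled ED-USP21, a name that the labels do not spell out, which gave 4 libraries per construct. The comparison asked how RNA differed between cells with WT-USP21 and cells with ED-USP21. Cells free of either construct were not analysed here, and the sources used here do not say whether doxycycline was present. Because 1 library stood for each construct in each line, no p-value exists within a line, and the 4 lines are the replicates of every test.

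A cell that leaves G1 releases E2F transcription factors from the retinoblastoma-family proteins, and E2F then raises transcription of cyclin E, of the helicase loaders and of the nucleotide synthesis enzymes needed for S phase. The genes of mitosis rise later, when the B-Myb and FoxM1 factors bind the MuvB complex at promoters that carry the CHR element, often beside CCAAT boxes. In a growing population these RNAs therefore report the share of cells that are in S phase, G2 or mitosis as well as the level in each cell, and in bulk RNA fewer cells of a phase cannot be told apart from less RNA per cell.

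Promoter windows held these elements in unequal shares of the G1/S and G2/M sets, and the CHR share of the G1/S set was not above that of all genes. RefSeq windows on GRCm38.p6, from 250 bases before to 50 bases after each start, were matched by symbol for 40 of the 49 genes, 20 in each set. An E2F site, searched on both strands as the letters TTCCCGC, or as TTCGCGC, or as TTGCCGC, or as TTGGCGC, occurred in 12 of 20 G1/S genes (60%) and in 4 of 20 G2/M genes (20%), beside 10.9% of the 27025 genes of the table. The CHR letters TTTGAA occurred in 3 of 20 G1/S genes (15%) and in 15 of 20 G2/M genes (75%), beside 20.2% of all genes. The CCAAT box occurred in 14 G1/S genes (70%) and 19 G2/M genes (95%), beside 41.1%. A CHR element and a CCAAT box were found together in 15 of 20 G2/M genes, beside 15% of the G1/S genes and 7.97% of all genes. The reversed CCAAT box can share letters with the E2F form TTGGCGC, a gene with several windows was counted where any of them matched, and a match is a description of the sequence only. In each set the windows shown are those of the gene with the lowest and the gene with the highest difference between the constructs in line 1 among those with a window. They are printed on the strand of the gene from 250 bases before to 30 bases after the start, with motif matches in capitals.
Cdc6 (chr11:98907901-98908180, plus strand): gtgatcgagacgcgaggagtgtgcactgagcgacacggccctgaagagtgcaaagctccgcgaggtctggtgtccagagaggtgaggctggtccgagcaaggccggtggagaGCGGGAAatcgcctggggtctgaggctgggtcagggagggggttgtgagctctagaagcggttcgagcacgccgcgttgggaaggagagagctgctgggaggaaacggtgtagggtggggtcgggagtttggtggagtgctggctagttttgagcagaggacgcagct
Ccne1 (chr7:38107461-38107740, minus strand): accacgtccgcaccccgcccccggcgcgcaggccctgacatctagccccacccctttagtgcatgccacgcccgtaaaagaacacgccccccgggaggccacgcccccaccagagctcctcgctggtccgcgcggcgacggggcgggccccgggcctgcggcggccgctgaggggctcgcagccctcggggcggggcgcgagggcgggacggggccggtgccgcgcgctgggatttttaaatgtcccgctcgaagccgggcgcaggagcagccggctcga
Hmmr (chr11:40733408-40733687, minus strand): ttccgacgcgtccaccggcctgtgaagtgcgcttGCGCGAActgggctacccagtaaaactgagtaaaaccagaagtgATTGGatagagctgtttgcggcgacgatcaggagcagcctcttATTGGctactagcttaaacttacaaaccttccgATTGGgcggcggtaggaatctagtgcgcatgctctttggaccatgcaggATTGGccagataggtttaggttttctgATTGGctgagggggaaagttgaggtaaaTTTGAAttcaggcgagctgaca
Kif23 (chr9:61946770-61947049, minus strand): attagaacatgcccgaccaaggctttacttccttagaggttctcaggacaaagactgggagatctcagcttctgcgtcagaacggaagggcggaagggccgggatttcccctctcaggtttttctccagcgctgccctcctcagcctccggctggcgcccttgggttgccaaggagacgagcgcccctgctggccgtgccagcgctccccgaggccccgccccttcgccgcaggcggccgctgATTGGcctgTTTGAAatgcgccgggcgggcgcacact
The window of Cdc6 held 1 E2F match, on the opposite strand. That of Hmmr held 1 E2F match, 5 CCAAT boxes on the opposite strand and 1 CHR element just after the start, and that of Kif23 held 1 CCAAT box and 1 CHR element 3 bases after the start. The window of Ccne1 has none of the letters searched.

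The 8 libraries held between 72828184 and 107551210 counts assigned to genes. Levels are given in CPM, counts scaled to a common library total with edgeR's trimmed mean of M values (TMM), and differences within a line are WT-USP21 minus ED-USP21 on the log2 CPM scale with a prior count of 2. Usp21 itself was counted in every library and was lower with WT-USP21 in each line: it had 147, 944, 539 and 941 CPM with WT-USP21 in lines 1 to 4 and 1658, 3133, 1662 and 2721 CPM with ED-USP21. Reads of the cells' own gene and of the construct were not separated, so these values are not the level of the construct alone. The 2 libraries of line 1 stood apart from the rest across the whole transcriptome: between 3361 and 4044 of 16192 genes differed at least 2-fold between a library of line 1 and one of another line with the same construct, against 703 to 1473 between lines 2, 3 and 4. Of the 49 cell cycle genes, 12 to 17 differed at least 2-fold between WT-USP21 in line 1 and WT-USP21 in another line, and 0 or 1 did between ED-USP21 in line 1 and ED-USP21 in another line. The ductal keratins were high in all libraries (Krt19 at 961 to 2588 CPM), while Epcam was at 5.35 and 3.40 CPM in line 1 and at 0.31 or less elsewhere. Summed over each list, ductal and epithelial markers reached 7672 to 13316 CPM with WT-USP21 and 8127 to 11183 CPM with ED-USP21, with the highest sum in line 1 with WT-USP21, and their part in the line 1 differences was not tested. The corresponding ranges were 6.85 to 14.98 and 4.78 to 7.84 CPM for fibroblast markers, 2.35 to 7.42 and 0.549 to 0.839 CPM for endothelial markers, 6.00 to 12.9 and 5.03 to 15.8 CPM for immune markers, and 2.09 to 9.32 and 2.67 to 11.3 CPM for acinar markers. Lum, Dcn and Thy1 of fibroblasts, Emcn of endothelium, and Ptf1a and Prss1 of acinar cells were at 0 counts in all 8 libraries.

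In line 1 both sets of cell cycle genes were lower with WT-USP21 than with ED-USP21, and the G1/S set was lower by more. All 24 G1/S genes and all 25 G2/M genes were lower in that line, with median differences of -0.92 (range -1.31 to -0.28) and -0.70 (range -0.96 to -0.42) on the log2 scale, while the median over all 16192 genes was 0.01. Lower by at least 1.5-fold were 22 G1/S genes and 18 G2/M genes, or 40 of 49, where 8.59% of all genes passed that fold in the lower direction and 12.4% in the higher direction. No cell cycle gene was higher in line 1.

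In lines 2, 3 and 4 the same genes lay close to equal levels. The G1/S medians were -0.03, -0.01 and -0.06 and the G2/M medians -0.06, 0.03 and -0.03 in lines 2, 3 and 4, and the medians of all genes in the 4 lines lay between -0.02 and 0.01. In line 2, 0 of 49 genes were lower by at least 1.5-fold, where 10.4% of all genes were. In line 3, 0 of 49 were lower, where 5.95% of all genes were. Higher by that fold there was 1 of 49 (Ccne1), beside 1669 of all 16192 genes. In line 4, 1 of 49 was lower (E2f2), where 10.4% of all genes were. The line 1 difference lay below those of all 3 other lines for 23 of 24 G1/S genes and 25 of 25 G2/M genes, beside 33.3% of all genes, and the exception was E2f2.

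**Figure D1:**
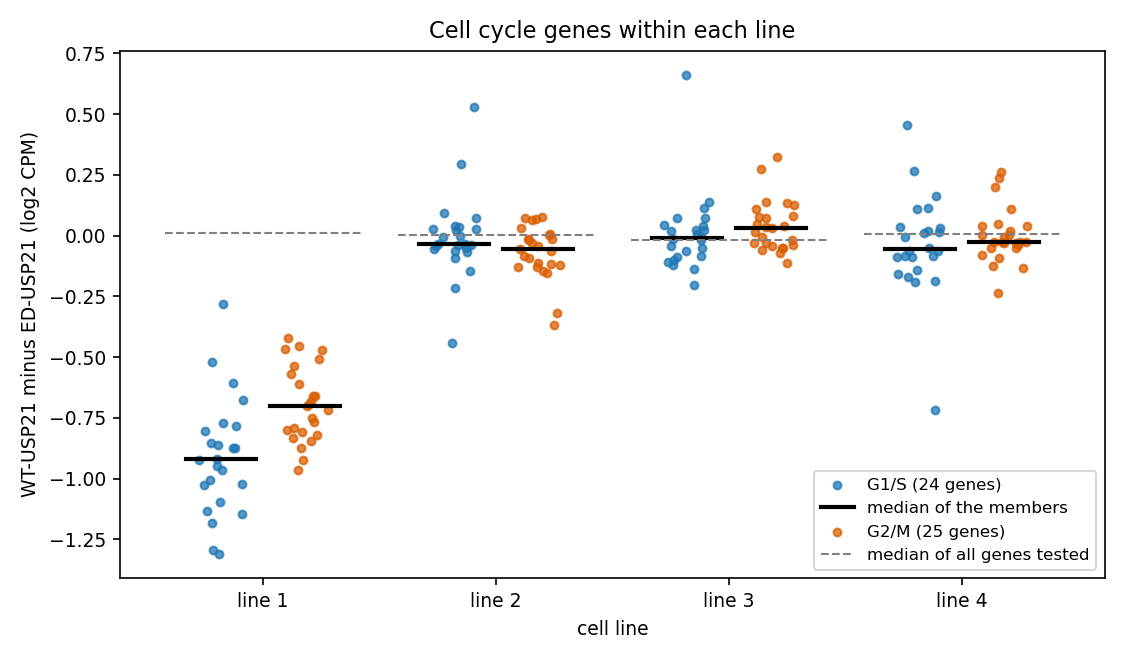
Difference between WT-USP21 and ED-USP21 in log2 CPM (vertical axis) in each cell line (horizontal axis), with 1 point per gene, blue for the G1/S set and orange for the G2/M set. Black bars are set medians and dashed lines are medians of all genes tested. The points of line 1 all lie below 0, with medians of -0.92 and -0.70, and the medians of the other lines lie between -0.06 and 0.03.

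By set medians, the line 1 library furthest from the other lines was the one with WT-USP21. For the G2/M set the one with ED-USP21 also lay above the other lines. Relative to each gene's mean over the 8 libraries, the median G1/S level was -0.90 with WT-USP21 and 0.02 with ED-USP21 in line 1, and between 0.10 and 0.16 in the other 6 libraries. For the G2/M set these medians were -0.57 and 0.19 in line 1 and between -0.03 and 0.12 elsewhere. WT-USP21 in line 1 was the lowest of the 8 libraries for 23 G1/S genes and 24 G2/M genes, where it was lowest for 21.8% of all genes. The exceptions were Ccne1, lowest with ED-USP21 in line 3, and Cdc20, lowest with WT-USP21 in line 3. ED-USP21 in line 1 was the highest of the 8 for 6 of 24 G1/S genes and 13 of 25 G2/M genes, where it was highest for 19.2% of all genes. The G2/M set in line 1 thus differed from the other lines in both directions, below them with WT-USP21 and, for 13 genes, above them with ED-USP21.

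Summed over the set, the G1/S genes took 1748 CPM with WT-USP21 and 3362 CPM with ED-USP21 in line 1, and 3505 to 3676 CPM in the other 6 libraries. The G2/M genes took 3809 and 6241 CPM in line 1 and 5689 to 6187 CPM elsewhere. The ratio of WT-USP21 to ED-USP21 in line 1 was 0.520 for G1/S (95% interval 0.517 to 0.523) and 0.610 for G2/M (0.608 to 0.613), with intervals that cover counting error only. The 2 intervals did not overlap, so the deeper G1/S difference exceeded counting error, but with 1 library per construct it had no replicate check. In lines 2, 3 and 4 the ratios were 0.989, 0.992 and 0.974 for G1/S and 0.934, 1.05 and 0.993 for G2/M. Gene by gene the sets also separated in line 1: 20 of 24 G1/S genes lay below the G2/M median, and 2 of 25 G2/M genes, Aurkb and Hmmr, lay below the G1/S median.

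**Figure D2:**
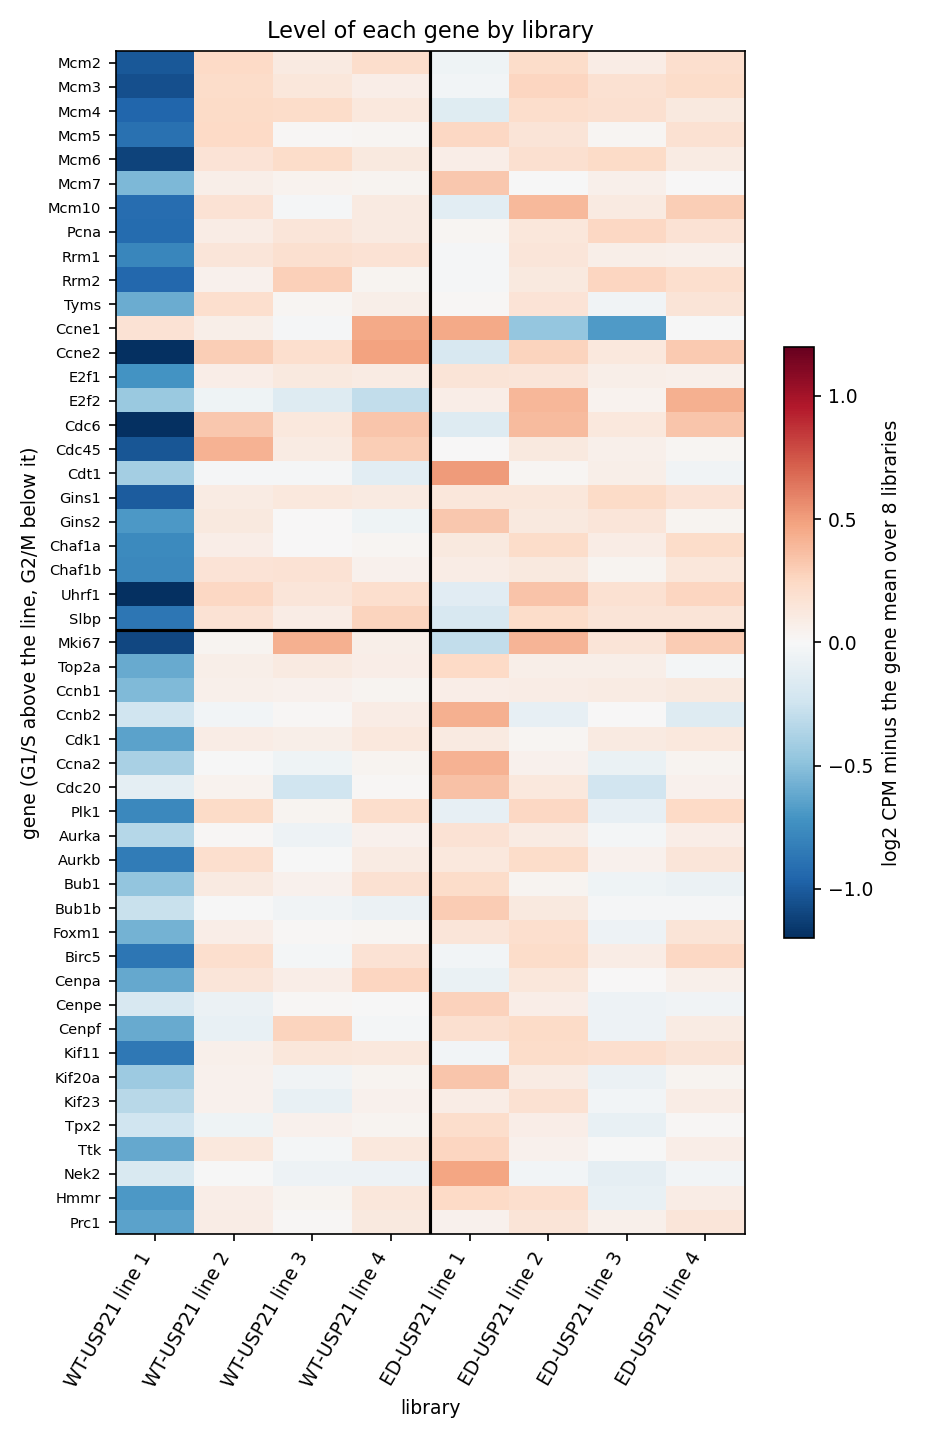
Level of each gene (rows, G1/S above the horizontal line and G2/M below it) in each library (columns, WT-USP21 left of the vertical line), as log2 CPM minus the gene's mean over the 8 libraries, with blue below and red above that mean. WT-USP21 in line 1 is the lowest library for 47 of 49 genes, and Ccne1 and Cdc20 are the exceptions.

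Within the G1/S set the helicase and its loaders were lowest in line 1. The 12 genes of this role, which place the MCM ring on DNA and activate it, had a median line 1 difference of -1.01 (range -1.31 to -0.78), and all 12 passed the 1.5-fold limit. Cdc6, which loads the MCM ring onto origins, stood at 16.1 CPM with WT-USP21 and 39.9 CPM with ED-USP21 in line 1, where the pairs of lines 2, 3 and 4 were 55.7 and 57.9, 48.7 and 48.4, and 55.98 and 56.2 CPM. Its line 1 ratio of 0.403 (95% interval 0.379 to 0.428, counting error only) was the lowest of the 49 genes, and the ratios of the other lines lay between 0.963 and 1.01. The subunits of the MCM ring, the motor of the replicative helicase, were likewise low in the same single library. Mcm6, a subunit of the ring, was at 141, 339.9, 354 and 329.9 CPM with WT-USP21 in lines 1 to 4 and at 320.3, 348, 357 and 325 CPM with ED-USP21. Mcm5, another subunit, was at 84.5 CPM with WT-USP21 and 187 CPM with ED-USP21 in line 1, where the pairs of lines 2, 3 and 4 were 185 and 174, 159 and 159, and 159 and 178 CPM. Mcm2, also a subunit, was at 108, 259.7, 237 and 254 CPM with WT-USP21 in lines 1 to 4 and at 212, 255, 234 and 251 CPM with ED-USP21. In these 4 genes WT-USP21 in line 1 was far below the 7 other libraries, and the remaining WT-USP21 libraries overlapped those with ED-USP21. The other ring subunits Mcm3, Mcm4 and Mcm7 differed by -1.02, -0.81 and -0.86 in line 1, the activators Cdc45, Gins1 and Gins2 by -1.03, -1.13 and -1.01, and the loader Cdt1 by -0.92. Mcm10, which helps to start the helicase, was at 38.6 CPM with WT-USP21 and 66.5 CPM with ED-USP21 in line 1, where the pairs of lines 2, 3 and 4 were 82.01 and 95.1, 72.1 and 78.4, and 78.5 and 89.2 CPM. It was lower with WT-USP21 in all 4 lines, by a log2 difference of -0.12 to -0.21 outside line 1, and Mcm3, Cdt1, Gins1 and Gins2 were also lower in all 4, by -0.01 to -0.14 outside line 1. Its construct difference over the 4 lines, with the line as a block, was -0.32 on the log2 scale (SE 0.12, edgeR adjusted p = 0.55).

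The genes of the fork clamp, chromatin assembly and histone RNA followed, with a median of -0.88 over 5 genes. Pcna, the sliding clamp of the DNA polymerases, stood at 116, 233, 241 and 236 CPM with WT-USP21 in lines 1 to 4 and at 223, 239.8, 260.2 and 247 CPM with ED-USP21. It was lower with WT-USP21 in all 4 lines, by -0.11 or less in size outside line 1. Slbp, which binds the stem-loop of replication-dependent histone RNAs, was at 37.9 CPM with WT-USP21 and 60.7 CPM with ED-USP21 in line 1, where the pairs of lines 2, 3 and 4 were 77.8 and 80.6, 73.4 and 76.8, and 83.3 and 77.2 CPM, and ran higher with WT-USP21 in line 4. Uhrf1, which recruits maintenance DNA methylation at the fork, differed by -1.10 in line 1, and the assembly factor subunits Chaf1a and Chaf1b differed by -0.88 and -0.85. For the 3 nucleotide synthesis genes the median was -0.77. Rrm2, the regulated subunit of ribonucleotide reductase, was at 141, 282, 331 and 278 CPM with WT-USP21 in lines 1 to 4 and at 268, 295, 326 and 313 CPM with ED-USP21. Rrm1, its partner, differed by -0.77 in line 1, and Tyms, thymidylate synthase, by -0.61, the smallest difference that still passed the 1.5-fold limit in the G1/S set.

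The E-type cyclins and E2F factors did not move as one, with line 1 differences from -1.30 to -0.28. Ccne2, cyclin E2, an activator of Cdk2 at the start of S phase, stood at 6.43 CPM with WT-USP21 and 15.8 CPM with ED-USP21 in line 1, where the pairs of lines 2, 3 and 4 were 22.2 and 21.7, 20.8 and 19.8, and 25.2 and 22.6 CPM. Its line 1 ratio was 0.407 (95% interval 0.370 to 0.447). In lines 2, 3 and 4 the ratios were 1.02 (0.956 to 1.09), 1.05 (0.985 to 1.12) and 1.12 (1.05 to 1.19). Of these 3, only that of line 4 exceeded counting error. Ccne1, cyclin E1, was at 2.68, 2.50, 2.36 and 3.25 CPM with WT-USP21 in lines 1 to 4 and at 3.27, 1.73, 1.48 and 2.37 CPM with ED-USP21. It was lower with WT-USP21 in line 1 alone, with a ratio of 0.822 (0.695 to 0.972), and higher in lines 2, 3 and 4, with ratios of 1.45 (1.17 to 1.80), 1.59 (1.28 to 1.98) and 1.37 (1.14 to 1.66). These bounds, too, hold counting error alone and rest on 128 to 339 counts per library, the fewest of the members named. Over the 4 lines the Ccne1 difference was 0.34 (SE 0.21, edgeR with the line as a block, adjusted p = 0.751), and the 2 groups overlapped. E2f1, an activating E2F, was at 14.6 CPM with WT-USP21 and 26.7 CPM with ED-USP21 in line 1, where the pairs of lines 2, 3 and 4 were 25.4 and 26.5, 26.03 and 25.2, and 25.6 and 25.00 CPM, and its ratios in lines 2, 3 and 4 lay between 0.958 and 1.03.

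E2f2, a second activating E2F, was lower with WT-USP21 in every line. It stood at 10.2, 13.4, 12.5 and 11.3 CPM with WT-USP21 in lines 1 to 4 and at 14.7, 18.3, 14.3 and 18.6 CPM with ED-USP21, or 11.9 ± 1.40 CPM with WT-USP21 and 16.5 ± 2.29 CPM with ED-USP21 (SD, n = 4). Every WT-USP21 library was below every ED-USP21 library, and the difference was deeper in line 4 (-0.72) than in line 1 (-0.52). Its construct difference was -0.47 on the log2 scale (SE 0.15, edgeR adjusted p = 0.9999), and with the line as a block -0.47 (SE 0.10, edgeR adjusted p = 0.284). DESeq2 with the line as a block called it, at -0.47 (SE 0.12, adjusted p = 0.00958).

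**Figure D3:**
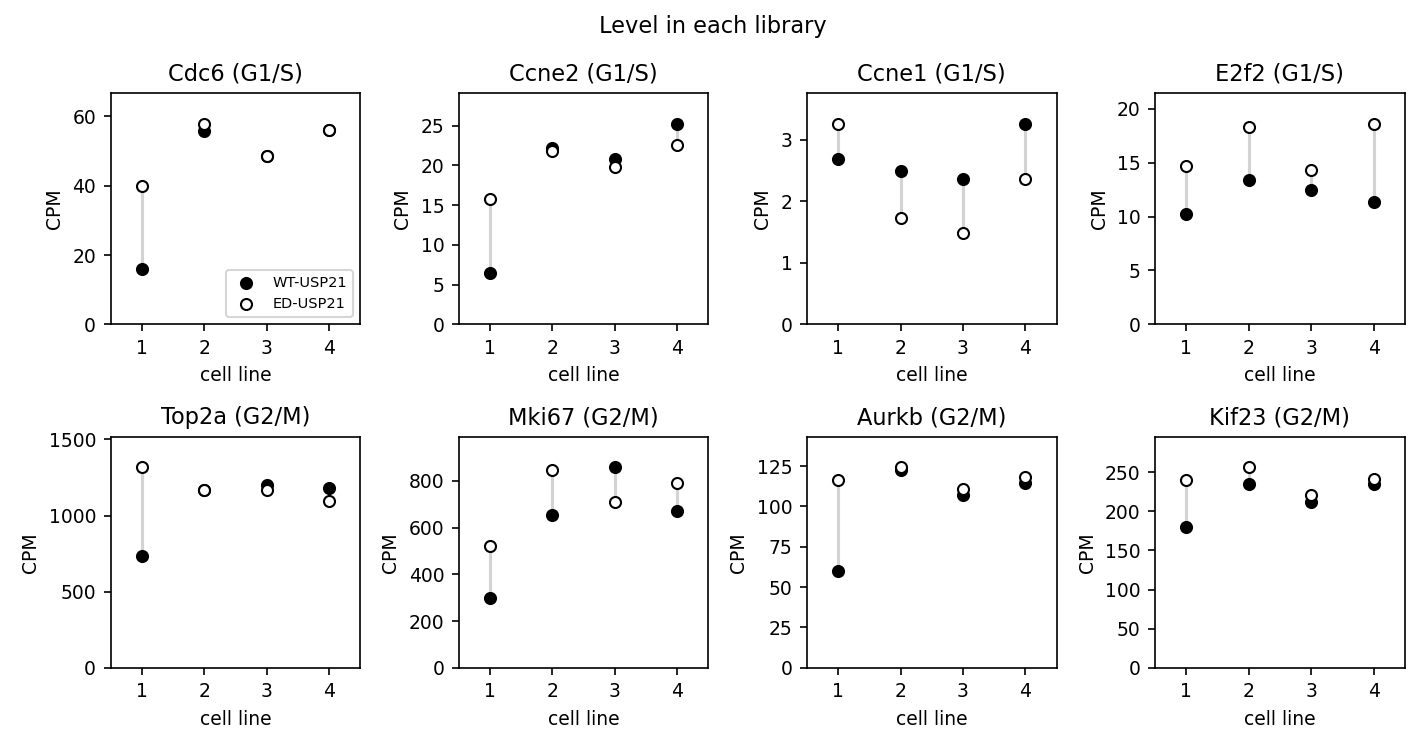
Level in CPM (vertical axis, starting at 0) of 8 genes in each cell line (horizontal axis), with filled points for WT-USP21, open points for ED-USP21 and a grey line joining the pair. Cdc6, Ccne2, Top2a and Aurkb part widely in line 1 alone, E2f2 is lower with WT-USP21 in all 4 lines, and Ccne1 is higher with WT-USP21 in lines 2, 3 and 4.

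In the G2/M set the mitotic kinases and survivin had a median line 1 difference of -0.76 over 6 genes. Aurkb, the kinase of the chromosomal passenger complex, stood at 59.7 CPM with WT-USP21 and 117 CPM with ED-USP21 in line 1, where the pairs of lines 2, 3 and 4 were 123 and 124, 107 and 111, and 114 and 118 CPM. Ttk, the spindle checkpoint kinase also called Mps1, was at 31.01, 51.7, 46.7 and 51.8 CPM with WT-USP21 in lines 1 to 4 and at 56.9, 49.1, 47.3 and 50.1 CPM with ED-USP21. Both were lowest with WT-USP21 in line 1, with line 1 ratios of 0.512 and 0.545, and ratios between 0.965 and 1.05 in the other lines. Birc5 (survivin), a partner of Aurkb, differed by -0.83 in line 1, Plk1 by -0.68, Nek2 by -0.66 and Aurka, the centrosomal kinase, by -0.51.

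Among spindle motors and microtubule-binding proteins the 6 line 1 differences ran from -0.93 to -0.42. Hmmr, a spindle-assembly protein and hyaluronan receptor, was at 87.3 CPM with WT-USP21 and 166 CPM with ED-USP21 in line 1, where the pairs of lines 2, 3 and 4 were 149 and 161, 144 and 132, and 154 and 149.8 CPM. Kif11, the motor that separates spindle poles, was at 155, 294, 309 and 307 CPM with WT-USP21 in lines 1 to 4 and at 274, 327, 324 and 313 CPM with ED-USP21. For both genes WT-USP21 in line 1 was the lowest library by a wide margin and the other 7 lay together. Tpx2, which activates Aurka on the spindle, was at 145 CPM with WT-USP21 and 199 CPM with ED-USP21 in line 1, where the pairs of lines 2, 3 and 4 were 166 and 181, 178 and 161, and 176 and 174 CPM. Kif23, a motor of the central spindle needed for cytokinesis, was at 179, 234, 212 and 234 CPM with WT-USP21 in lines 1 to 4 and at 240.0, 256, 221 and 241 CPM with ED-USP21. Kif23 had the smallest line 1 difference of the G2/M set, with a ratio of 0.747 (95% interval 0.733 to 0.762), and was lower with WT-USP21 in all 4 lines. Kif20a and Prc1, which also act at the central spindle, differed by -0.77 and -0.69 in line 1.

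Cyclins A and B with their kinase had a median of -0.71 over 4 genes. Cdk1, the kinase that starts mitosis, was at 137 CPM with WT-USP21 and 230.2 CPM with ED-USP21 in line 1, where the pairs of lines 2, 3 and 4 were 227 and 217, 224 and 230.1, and 233 and 233 CPM. Ccnb1, cyclin B1, was at 118, 177, 176 and 173 CPM with WT-USP21 in lines 1 to 4 and at 179.7, 181, 181 and 184 CPM with ED-USP21. All 4 WT-USP21 libraries of Ccnb1 were below all 4 with ED-USP21, but outside line 1 the differences were -0.09 or smaller in size. Ccna2, cyclin A2, and Ccnb2, cyclin B2, differed by -0.81 and -0.66 in line 1 and by 0.24 or less in size elsewhere. Foxm1, the transcription factor of the mitotic genes, was at 59.1 CPM with WT-USP21 and 97.2 CPM with ED-USP21 in line 1, where the pairs of lines 2, 3 and 4 were 92.7 and 101, 88.8 and 84.3, and 89.2 and 97.7 CPM, a difference of -0.72 in line 1.

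Top2a, the topoisomerase that untangles replicated chromosomes, stood at 733, 1171, 1201 and 1183 CPM with WT-USP21 in lines 1 to 4 and at 1319, 1171, 1169 and 1098 CPM with ED-USP21. The 7 other libraries of Top2a lay within 1098 to 1319 CPM. Mki67, which encodes the proliferation antigen Ki-67, was at 299 CPM with WT-USP21 and 520.4 CPM with ED-USP21 in line 1, where the pairs of lines 2, 3 and 4 were 656 and 847, 859 and 710.2, and 673 and 792 CPM. Its levels varied outside line 1 as well, lower with WT-USP21 in lines 2 and 4 and higher in line 3. Cenpf, a kinetochore protein, varied in the same way, with differences of -0.79, -0.32, 0.32 and -0.12 in lines 1 to 4. Among the role groups, those of centromere proteins and of checkpoint and anaphase had the line 1 medians nearest 0, -0.54 and -0.57 over 3 genes each. This depends on the grouping, since Cenpf is among the centromere proteins. The checkpoint kinase Ttk, grouped with the mitotic kinases, differed by -0.87. Within these 2 groups Cenpe, a kinetochore motor, and Cenpa, the centromeric histone, differed by -0.47 and -0.54. Cdc20, which activates the anaphase-promoting complex, differed by -0.47, and the checkpoint kinase Bub1 and its relative Bub1b by -0.70 and -0.57. Of the 9 genes within 1.5-fold in line 1, 7 belonged to the G2/M set (Bub1b, Cenpa, Aurka, Cdc20, Cenpe, Tpx2 and Kif23) and 2 to the G1/S set (E2f2 and Ccne1). Close to the 1.5-fold limit, Tyms and Ccnb1 just passed it at -0.61 each, and Bub1b just fell short of it at -0.57.

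The line 1 differences were also set beside the promoter elements. The 12 G1/S genes with an E2F match had a median difference of -0.92 (-1.31 to -0.52) and the 8 without one -0.83 (-1.03 to -0.28). The 15 G2/M genes with both a CHR element and a CCAAT box had a median of -0.69 and the 5 others -0.66, and the ranges overlapped. No test was made between these subsets.

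Across the 4 lines edgeR called no cell cycle gene at an adjusted p under 0.05, and DESeq2 called E2f2 with the line as a block. In edgeR's quasi-likelihood test without a line block, 0 of 24 G1/S and 0 of 25 G2/M genes were called, as were 0 of 16192 genes in all (0%), and at an unadjusted p under 0.05 there was 1 of 49 genes (E2f2, lower), and of all genes 259 were higher and 133 lower. With the line as a block the test again called 0 of 49, where 0.0247% of all genes were called higher and 0% lower. E2f2 and Mcm10, both lower, had an unadjusted p under 0.05, beside 875 genes higher and 466 lower among all genes. Block-adjusted p-values of the 49 genes ran from 0.284 (E2f2) to 0.957 (Bub1). DESeq2 called 0 of 49 without the block. With the block it called 1 of 49 lower (E2f2) and 0 higher, where 0.562% of all genes were called lower and 1.95% higher. The fitted differences had a median of -0.21 over the G1/S set and -0.17 over the G2/M set without the block, and 0.00 over all genes.

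Leaving out line 1 removed the shared direction. In edgeR with the line as a block over lines 2, 3 and 4, the median difference was -0.01 over the G1/S set and 0.00 over the G2/M set. That fit called 0 of 49 genes, where 2.06% of all genes were called lower and 2.51% higher. At an unadjusted p under 0.05, 3 of the 49 were higher (Ccne1, Cdc45 and Bub1) and 2 lower (E2f2 and Mcm10). Of all 16326 genes tested in that fit, 1503 were higher and 1459 lower at the same limit. Ccne1 was higher by 0.56 in that fit (edgeR adjusted p = 0.147) and E2f2 lower by a log2 difference of -0.45 (edgeR adjusted p = 0.0801).

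Outside line 1 some genes kept one sign. Lower with WT-USP21 in each of lines 2, 3 and 4 were 9 G1/S and 9 G2/M genes, or 18 of 49, beside 20.3% of all genes. Higher in each of these lines were 9 of 49, a share close to that of all genes (3205 of 16192). Every WT-USP21 library was below every ED-USP21 library for 4 genes (E2f2, Gins1, Chaf1a and Ccnb1), beside 0.71% of all genes. The opposite held for 0 of 49, beside 174 of all 16192 genes. The count of 4 includes the low values of WT-USP21 in line 1. Outside line 1 the differences of Gins1 were between -0.10 and -0.04, and those of Chaf1a between -0.19 and -0.08.

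No cell cycle gene had a called dependence on the background label. In the edgeR interaction test of construct with background, 0 of 49 genes were called and 0 of 16192 genes in all (0%). At an unadjusted p under 0.05 there was 1 of the 49, Cenpf (-0.65 on the log2 scale, adjusted p = 0.99), and of all genes 202 had a positive and 173 a negative term. Lines 1 and 2 share the background FVB/C57Bl6, and their median differences were -0.92 and -0.03 for G1/S and -0.70 and -0.06 for G2/M, so the 2 lines of that background were unlike each other.

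Genes of the same machinery that are not among the 49 were also lower with WT-USP21 in line 1. In a list of 46 further replication and S phase genes, all 46 had a lower difference in line 1 than in each other line, 43 passed the 1.5-fold limit and the median was -0.86, against -0.02, 0.01 and 0.00 in lines 2, 3 and 4. Rad51ap1, a DNA repair protein, was at 10.6, 31.1, 25.6 and 30.8 CPM with WT-USP21 in lines 1 to 4 and at 24.6, 34.4, 27.1 and 34.9 CPM with ED-USP21. Tk1, thymidine kinase, differed by -0.87 in line 1 and by -0.05 to -0.22 elsewhere, and Fen1, the flap endonuclease, by -0.79 and by -0.02 to -0.31. In a list of 62 further mitosis genes, all 62 had a lower difference in line 1 than in each other line, 44 passed the 1.5-fold limit and the median was -0.70, against -0.01, 0.02 and 0.03. Of all genes, 33.3% had a lower difference in line 1 than in each other line and 8.59% passed the 1.5-fold limit. Cdca3, a regulator of mitotic entry, differed by -0.77 in line 1, Hmgb2, a chromatin protein, by -0.75 and Incenp, the scaffold of the passenger complex, by -0.58. edgeR called 0 genes of either list with or without the line block.

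**Figure D4:**
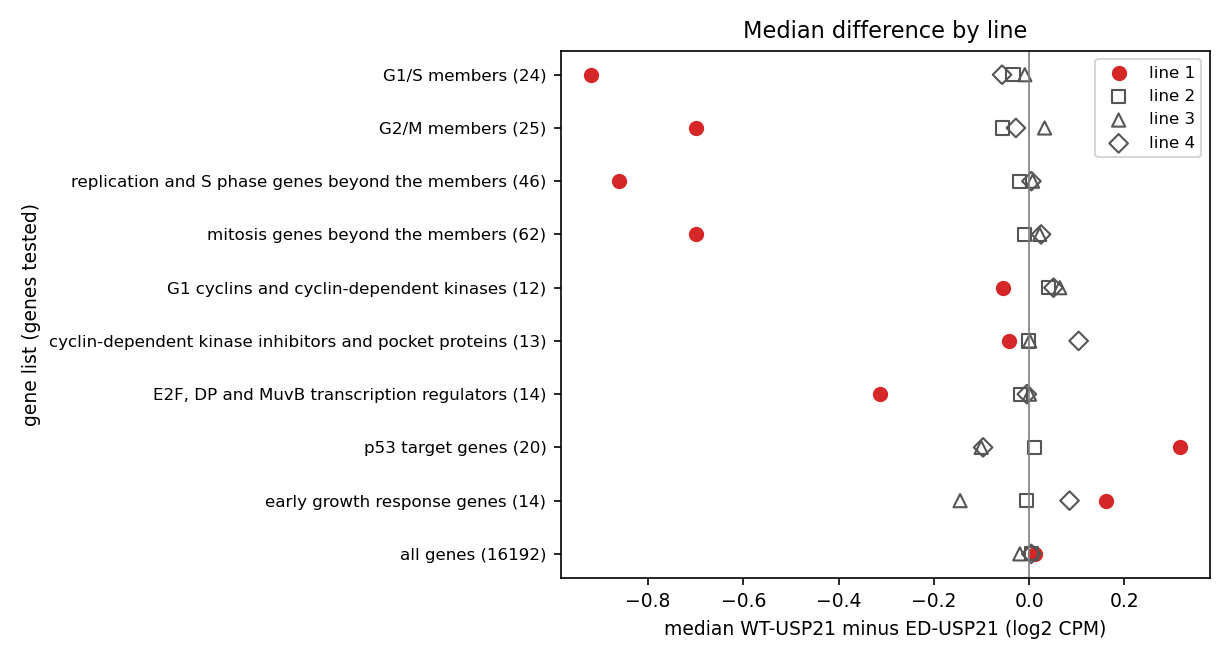
Median difference between WT-USP21 and ED-USP21 in log2 CPM (horizontal axis) for each gene list (vertical axis, with the number of genes tested), with red circles for line 1 and open symbols for lines 2, 3 and 4. The line 1 medians of the G1/S, G2/M, replication and mitosis lists lie between -0.92 and -0.70, and that of the p53 target list is 0.32.

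In the lists of G1 cyclins and kinases and of E2F, DP and MuvB genes the line 1 medians were nearer 0 than in the G1/S and G2/M sets. The E-type cyclins, E2f1 and E2f2 are counted in the G1/S set instead, with line 1 differences from -1.30 to -0.28. The 12 G1 cyclins and cyclin-dependent kinases had medians of -0.05, 0.04, 0.06 and 0.05 in lines 1 to 4, and edgeR called 0. The line 1 difference lay below those of all 3 other lines for 7 of the 12, beside 33.3% of all genes, and above them for 3. Ccnd1, cyclin D1, was at 959 CPM with WT-USP21 and 1057 CPM with ED-USP21 in line 1, where the pairs of lines 2, 3 and 4 were 1902 and 1583, 1781 and 1636, and 2027 and 1589.9 CPM, so that both libraries of line 1 were below the other 6 while the constructs differed by -0.14. Cdk2, the partner of cyclin E, differed by -0.41 in line 1 and by -0.04 to -0.08 elsewhere, and Mnat1, a subunit of the Cdk-activating kinase, by 0.12 in line 1. The members of the list spread from -0.63 to 0.71 in line 1, and the highest of them, cyclin D2 (Ccnd2, chosen after its values were seen), was at 446, 114, 152 and 111 CPM with WT-USP21 in lines 1 to 4 and at 272, 169, 130.2 and 155 CPM with ED-USP21. The 14 tested E2F, DP and MuvB genes had medians of -0.31, -0.02, 0.00 and 0.00 by line, and edgeR called 0. In line 1, 12 of the 14 were lower with WT-USP21. The line 1 difference lay below those of all 3 other lines for 11 of them, beside 33.3% of all genes, and above them for 2. E2f4, a repressor-type E2F, differed by -0.17, Tfdp1, the dimer partner of E2Fs, by -0.32, and E2f6 by -0.24 in line 1. Lower by at least 1.5-fold in line 1 were 4 of the 14, beside 8.59% of all genes. Among these 4, and chosen after their values were seen, Mybl2 (B-Myb) differed by -1.04, E2f7 by -1.03 and E2f8 by -0.99, each itself a gene whose RNA is known to rise in cycling cells.

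Among the inhibitors of the cycle, Cdkn2a and Cdkn2b were high in line 1 and near 0 in the other lines. The 13 cyclin-dependent kinase inhibitors and pocket proteins had medians of -0.04, 0.00, 0.00 and 0.10 in lines 1 to 4, and edgeR called 0. Cdkn2a, which encodes p16Ink4a and p19Arf, was at 147 CPM with WT-USP21 and 96.2 CPM with ED-USP21 in line 1, where the pairs of lines 2, 3 and 4 were 1.66 and 0.230, 0.105 and 0.183, and 3.03 and 1.38 CPM. Cdkn2b, its neighbour, which encodes p15Ink4b, was at 115, 0.993, 0.052 and 2.60 CPM with WT-USP21 in lines 1 to 4 and at 77.8, 0.419, 0.204 and 1.16 CPM with ED-USP21. Both genes were high in both libraries of line 1, higher there with WT-USP21, and at most 3.03 CPM in the other 6 libraries. Cdkn1c, which encodes p57Kip2, differed by 1.14 in line 1 at low levels (1.13 CPM with WT-USP21 and 0.501 CPM with ED-USP21 in line 1, where the pairs of lines 2, 3 and 4 were 2.43 and 1.43, 2.81 and 2.40, and 3.97 and 1.11 CPM). With the line as a block, edgeR gave adjusted p = 0.549 for Cdkn2a, 0.647 for Cdkn2b and 0.431 for Cdkn1c. Cdkn1a, which encodes p21Cip1 and was chosen after its values were seen, was at 15.3, 7.04, 6.80 and 6.33 CPM with WT-USP21 in lines 1 to 4 and at 11.9, 7.27, 9.46 and 7.93 CPM with ED-USP21, so that it was also highest in the 2 libraries of line 1. In line 1, 8 of the 13 were lower with WT-USP21, 5 of them by at least 1.5-fold, against 2 higher by that fold. The shares of all genes past that fold were 8.59% lower and 12.4% higher. The 5 lower inhibitors, named after their values were seen, were Rbl1 (the pocket protein p107) at -0.998, Cdkn2c at -0.70, the mitotic brake Wee1 at -0.69, Cdkn2d at -0.66 and Pkmyt1 at -0.66. The part of these inhibitors in the line 1 difference of the cell cycle genes was not tested.

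**Figure D5:**
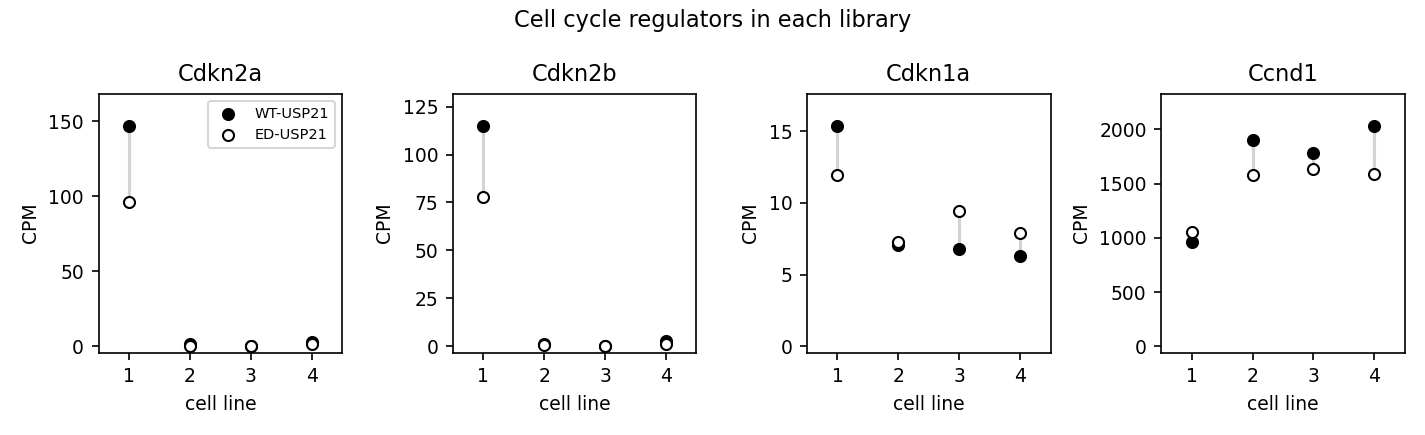
Level in CPM (vertical axis, starting at 0) of 4 regulators in each cell line (horizontal axis), with filled points for WT-USP21 and open points for ED-USP21. Cdkn2a and Cdkn2b reach 147 and 115 CPM with WT-USP21 in line 1 and stay at or under 3.03 CPM in lines 2, 3 and 4, and Ccnd1 is lower in both libraries of line 1 than in the other 6.

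The 20 p53 target genes had medians of 0.32, 0.01, -0.10 and -0.10 in lines 1 to 4. In line 1, 5 were lower and the rest higher with WT-USP21, 3 of them higher by at least 1.5-fold and 0 lower by that fold. By that fold 12.4% of all genes were higher in line 1 and 8.59% lower. Rrm2b, the ribonucleotide reductase subunit under p53 control, was at 44.6 CPM with WT-USP21 and 35.8 CPM with ED-USP21 in line 1, where the pairs of lines 2, 3 and 4 were 16.99 and 13.7, 19.7 and 17.1, and 20.02 and 15.5 CPM and was higher with WT-USP21 in all 4 lines (edgeR with the line as a block, adjusted p = 0.279). Gdf15, a secreted stress factor, differed by -0.14 in line 1 and by -0.99 in line 2, and Phlda3, an inhibitor of Akt, by -0.02 and 0.31. The 14 early growth response genes had medians of 0.16, -0.01, -0.14 and 0.08. Odc1, which makes polyamines and is a Myc target, differed by -0.61 in line 1 and by -0.18 to -0.29 elsewhere, Junb by 0.40 and by 0.09 to 0.46, and Nolc1, a nucleolar protein, by -0.26 and by -0.03 to -0.08. edgeR called 0 genes of either list over the 4 lines, with or without the block. Over the 7 pathway lists, genes at an unadjusted p under 0.05 numbered 0 higher and 2 lower in edgeR without the block and 6 higher and 3 lower with it. Among all 16192 genes these numbers were 259 and 133 without the block and 875 and 466 with it. DESeq2 with the block called 1 p53 target higher and 0 genes of the other 6 lists, where 1.95% of all genes were called higher and 0.562% lower. With line 1 left out, edgeR with the block called 1 p53 target higher and 2 lower. The same fit called 0 early growth response genes higher and 1 lower, where 2.51% of all genes were called higher and 2.06% lower.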

How the data were processed

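Total RNA of 8 libraries, 1 per cell line and construct, was sequenced, and the authors deposited 1 table of whole-number counts per gene for each library. The submitters' processing notes name CASAVA, STAR, TopHat, Cufflinks, HTSeq and the build mm9; versions, roles and strand setting are not given in the sources used here. Overlapping and antisense genes could therefore not be separated. The 3 rows that name no gene were left out of library sizes; reads assigned to no feature made up 11.4% to 20.6% of each library. Gene names are those of the files, and all 49 members matched the gene name table. Counts were tested in R 4.3.3 with edgeR 4.0.16 (quasi-likelihood, TMM scaling, filterByExpr, Benjamini-Hochberg over 16192 genes, called at an adjusted p under 0.05), and DESeq2 1.42.0 was the alternative. The standard error of a log2 difference is its size divided by the square root of the F statistic. Replicates are the 4 cell lines; both libraries with 1 number are 1 cell line, and their deviations from the group means correlated by 0.770, 0.503, 0.468 and 0.347 in lines 1 to 4, so the line was also fitted as a block. The edgeR fits with and without the line block were tested on simulated data. Named with the value of every library were 13 genes of set roles. So were, in each set, the 4 genes lowest and the 2 highest in line 1 and the 2 with the smallest blocked p. Up to 3 genes per pathway list were also named by that p, many of them with log2 differences only. The members, the lists and this rule were chosen with earlier results of these data known. Promoter windows are RefSeq's on GRCm38.p6, of which 280 bases are printed; no coordinates on mm9 were used. Precision within a line is given by 95% intervals of count ratios. Alternatives were other scalings, filters, prior counts and tools, the line block, and leaving out each line. A few items of the labels and lists are not reported here.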

Additional observations from a re-analysis of the deposited data

Results flagged for a closer look

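Among groups of 4 values, 18 of 52 examined held 1 value far from the other 3 by Dixon's test, which flags about 1 in 20 groups by chance. All 18 were low values of WT-USP21 in line 1 or the line 1 difference. That difference was known when the genes were chosen and the 18 are not independent of each other, so their number is a description and not a test. In the G1/S set the library of WT-USP21 in line 1 stood apart from the other 3 WT-USP21 libraries for Cdc6 at 16.1 CPM (others 48.7 to 56.0), Ccne2 at 6.43 CPM, Mcm6 at 141 CPM, Mcm10 at 38.6 CPM, Pcna at 116 CPM, E2f1 at 14.6 CPM, Slbp at 37.9 CPM and Mcm2 at 108 CPM. In the G2/M set it stood apart for Hmmr at 87.3 CPM, Top2a at 733 CPM (others 1171 to 1201), Kif11 at 155 CPM, Ccnb1 at 118 CPM, Cdk1 at 137 CPM and Foxm1 at 59.1 CPM. The median centred level in that library was -0.904 for G1/S and -0.569 for G2/M on the log2 scale. The median line 1 difference, set against those of the other 3 lines, was -0.921 for G1/S and -0.70 for G2/M.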

How the results depend on the processing

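The line 1 medians kept their sign under all scalings, filters, prior counts and the mean, from -0.92 to -0.89 for G1/S and from -0.70 to -0.67 for G2/M. The libraries of a line were paired, and the replicate block raised the genes called among all genes from 0 to 4 and changed no call among the 49. DESeq2 called 60 genes in all without the block and 406 with it, of which 1 was a G1/S member (E2f2, at a log2 difference of -0.47). Leaving out 1 line at a time, with and without the block, gave 0 to 746 genes called in all, with 383 without line 1 and no block. Over the same fits 9 of 23 named members changed sign when line 1 was left out. The ranges of their log2 differences without the block, each followed by its value without line 1 and with the replicate block, were Ccne2 -0.21 to 0.094 (0.092), Hmmr -0.29 to 0.018 (0.022), Ttk -0.25 to 0.040 (0.039), Top2a -0.23 to 0.054 (0.054), Tpx2 -0.18 to 0.015 (0.016), E2f1 -0.25 to 0.011 (0.011), Slbp -0.20 to 0.0049 (0.0035), Mcm2 -0.22 to 0.024 (0.024) and Cdk1 -0.22 to 0.012 (0.012). These fits leave 3 libraries per construct. Depth sets the counting intervals within a line, which hold no spread between libraries.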
